A study of Homo sapiens with 2 samples.

Results

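Readthrough genes are annotated transcription units that join a gene to the gene downstream of it. A row of the deposited gene table was taken as a candidate when its symbol held exactly 1 hyphen and each of the parts beside the hyphen was the symbol of another row, its upstream and its downstream parent. Of 60616 rows, 132 were candidates, and 98 of these were kept because they were selected on measured values, with at least 10 expected counts over both libraries together. The data are 2 RNA-seq libraries of HSC-3, a cell line from a human squamous carcinoma of the tongue, with no engineered change named in the labels. The DMSO library came from cells given the solvent dimethyl sulfoxide at 0.1%, with no time stated. The FIN56 library came from cells given 1 µM FIN56 for 48 h. FIN56 is a compound used to trigger ferroptosis, an iron-dependent cell death driven by lipid peroxidation. With 1 library per condition no test between the conditions could be made, and every difference below is between these 2 libraries.

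Transcription by RNA polymerase II normally ends after the nascent RNA is cleaved and polyadenylated downstream of a gene. When the polymerase continues into the next gene on the same strand, splicing can join exons of both genes, and annotation gives such joined transcripts a hyphenated gene of their own. A joined transcript is built largely of sequence that its parents also contain, so most short reads from it fit a parent as well.

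The 98 rows carried 97 symbols and 194 distinct parents, and no parent belonged to more than 1 of the symbols. GENCODE release 44 on GRCh38, which holds 60419 of the 60616 row identifiers, tagged 87 of the 98 rows as readthrough genes. It called 88 protein coding and 10 long non-coding. In 96 rows the gene overlapped both parents on the same strand, and the first name in the symbol was the upstream gene in all 96. The exceptions were PTGER4P2-CDK2AP2P2, which overlaps neither parent, and 1 of the 2 rows named ARMCX5-GPRASP2, which overlaps GPRASP2 only. The median gap between the parents was 4659 bases. A median of 130.5 exonic bases, or 4.49% of a readthrough gene's exons, lay outside the exons of both parents, and 26 of the 98 genes had no such base. In genes with few such bases, what sets them apart from their parents in sequence is therefore mainly the exon junction that joins them. In 38 of the 98, however, 10% or more of the exonic bases lay outside both parents. Of the 98, 82 had an annotated intron that runs from an exon of the upstream parent to an exon of the downstream parent.

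These joining junctions are shown for 5 genes whose values are described below, as 30 bases on each side in the spliced GENCODE release 44 transcript, with the bases of the downstream parent in capitals. All 5 junctions lie inside the annotated coding sequence of the readthrough transcript. NME1-NME2 is shown because its value in the FIN56 library was several times that in the DMSO library, PEDS1-UBE2V1 and ZNF816-ZNF321P because they were lower where both parents were higher, and FMC1-LUC7L2 and ARPIN-AP3S2 because they are abundant and were higher.
NME1-NME2: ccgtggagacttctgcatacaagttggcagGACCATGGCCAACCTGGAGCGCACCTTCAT
PEDS1-UBE2V1: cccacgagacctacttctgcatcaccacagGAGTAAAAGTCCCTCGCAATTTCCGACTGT
ZNF816-ZNF321P: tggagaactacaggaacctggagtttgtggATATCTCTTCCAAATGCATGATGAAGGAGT
FMC1-LUC7L2: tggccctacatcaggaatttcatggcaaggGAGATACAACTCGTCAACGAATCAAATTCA
ARPIN-AP3S2: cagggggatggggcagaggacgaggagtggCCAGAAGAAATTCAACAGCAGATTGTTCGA
The NME1-NME2 bases come from chr17:51161243-51161272 and chr17:51166827-51166856 on the plus strand of GRCh38. Those of PEDS1-UBE2V1 come from chr20:50127975-50128004 and chr20:50096791-50096820 on the minus strand. Those of ZNF816-ZNF321P come from chr19:52952751-52952780 and chr19:52929385-52929414 on the minus strand. Those of FMC1-LUC7L2 come from chr7:139345592-139345621 and chr7:139376062-139376091 on the plus strand. Those of ARPIN-AP3S2 come from chr15:89903216-89903245 and chr15:89889111-89889140 on the minus strand. A read gives direct evidence of one of these transcripts only where it, or its mate, crosses such a join, and reads on either side alone also fit a parent.

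The libraries held 70184517 (DMSO) and 73062209 (FIN56) expected counts, which are read counts estimated per gene by a method that divides a read among all genes it fits. Squamous epithelial markers were abundant in both, for example KRT5 at an FPKM of 2078.49 and 1646.62 and TP63 at 85.64 and 92.59, whereas the leukocyte genes PTPRC and CD3E were listed at 0 in both. FPKM is the level scaled for gene length and sequencing depth, and it is used below for levels and ratios. All ratios are FIN56 over DMSO. A 95% exact Clopper-Pearson interval is given for the ratio of expected counts scaled by library totals. It covers counting error only, and leaves out the error made when shared reads are divided. Without molecular identifiers, reads also cannot be taken as separate molecules.

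Readthrough genes were a small part of the libraries. The 98 genes together held 49375 expected counts in DMSO and 49903 in FIN56, which is 0.0704% and 0.0683% of the totals. Their expected counts ranged from 0 to 6018 in DMSO with a median of 133, and from 0 to 5567 in FIN56 with a median of 90.8. In 46 of them the FPKM was below 1 in both libraries, and in 41 it was 1 or more in both. Over both libraries 78 had at least 50 expected counts and 22 at least 1000. The rows just inside the minimum were TRIM39-RPP21 with 11.84 expected counts over both libraries, PTGER4P2-CDK2AP2P2 with 13.37 and TGIF2-RAB5IF with 14.43, and those just outside were INMT-MINDY4 with 8.9, FPGT-TNNI3K with 8.65 and BORCS7-ASMT with 7.89. Of the 34 candidates below the minimum, 25 had no count in either library.

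**Figure D1:**
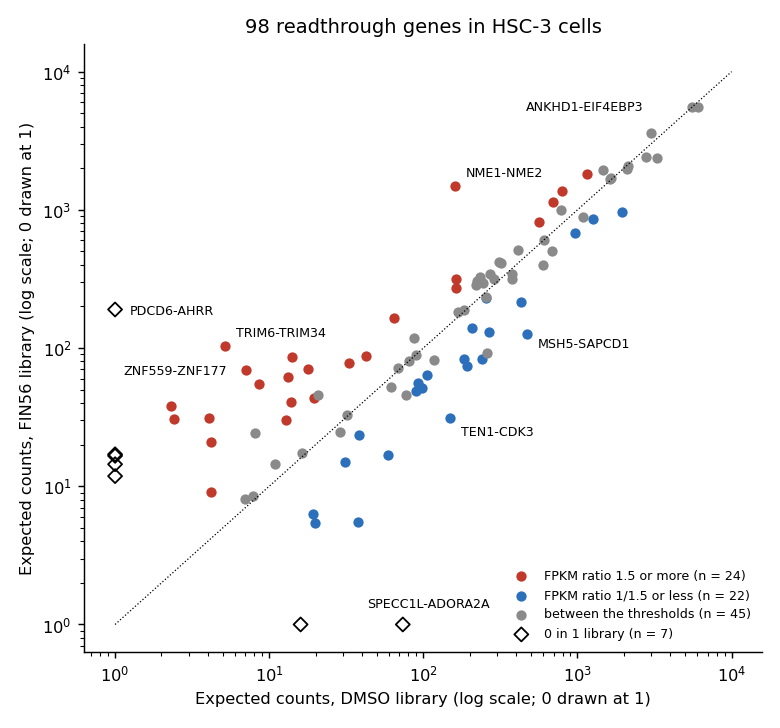
Expected counts of the 98 readthrough genes in the DMSO library (x axis) and the FIN56 library (y axis), both on log scales, with 0 drawn at 1. Red points have an FPKM ratio of 1.5 or more (24 genes), blue points 1/1.5 or less (22), grey points lie between (45), and open diamonds are at 0 in 1 library (7). The dotted line marks equal counts, and the points spread more widely around it at low counts.

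The deposited counts of readthrough genes were almost never whole numbers. Of the 98, 97 (99.0%) had an expected count more than 0.005 from a whole number in at least 1 library, against 45.5% of all 20364 rows with at least 10 expected counts together. In 89 the count was non-whole in both libraries. All 184 parent rows that passed the same minimum and were above 0 in both libraries also had non-whole counts. The exception among the readthrough genes was ATF7-NPFF, which joins a transcription factor gene to a neuropeptide gene, with 98 and 51 expected counts. In each band of abundance at least 96.7% of the readthrough genes were non-whole, while the share over all rows lay between 39.5% and 52.4%. The gap to all rows was thus present at each level of abundance.

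**Figure D2:**
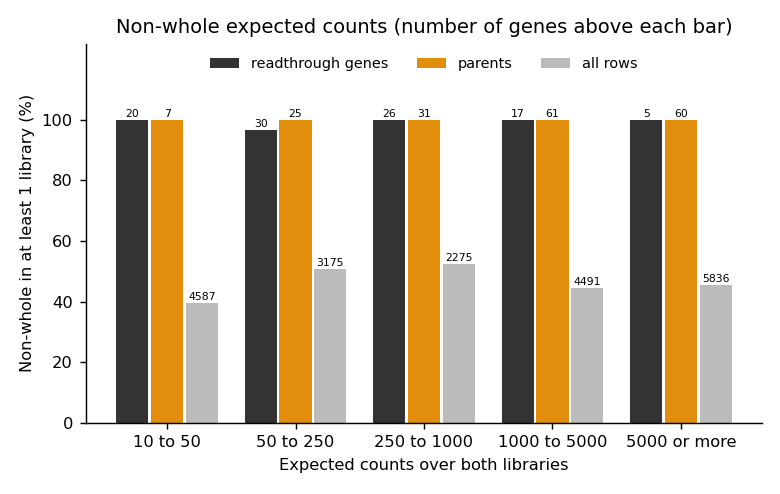
Percent of genes with a non-whole expected count in at least 1 library (y axis) by expected counts over both libraries (x axis), for readthrough genes (black), their parents (orange) and all rows (grey), with the number of genes above each bar. Readthrough genes and parents stand at 96.7% or more in each band and all rows at 52.4% or less.

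In 37 of the 98 loci the expected counts of the readthrough gene and both parents added up to a whole number, within 0.02, in both libraries. This tolerance was chosen after the values were seen. At TRIM6-TRIM34 the readthrough gene had 5.18 and 103.81 expected counts in DMSO and FIN56, TRIM6 had 6272.24 and 5514.54, TRIM34 had 1291.58 and 1023.65, and the sums were 7569 and 6642. At TEN1-CDK3, which joins a telomere-capping protein gene to a cyclin-dependent kinase gene, the readthrough gene had 148.87 and 31.1 and the sums were 850 and 621. Whole sums are what results when reads are divided among these 3 genes alone. In 51 loci the sum was whole in neither library, and in 10 in 1 library.

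Of the 91 readthrough genes above 0 FPKM in both libraries, 24 (26.4%) lay at a ratio of 1.5 or more and 22 (24.2%) at 1/1.5 or less. Over all 20236 rows with at least 10 expected counts together that were above 0 in both, the shares were 11.3% and 14.4%. With at least 50 expected counts, 18 of 76 readthrough genes (23.7%) passed the threshold in each direction, against 6.84% of all rows upward and 10.1% downward. The median log2 ratio was 0.08 in readthrough genes, -0.06 in their parents and 0.01 over all rows, so there was little common direction. The spread differed more. The median size of the log2 ratio, without its sign, was 0.60 in readthrough genes, 0.30 in parents and 0.30 over all rows. On the deposited rlog values, which shrink the differences of genes with few counts, only NME1-NME2 passed the threshold of 1.5 among the 91.

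Fewer than 50 expected counts were found in 20 of the 98 genes. Among genes with at least 50, the median size of the log2 ratio was 0.54 in readthrough genes, 0.29 in parents and 0.25 over all rows. In genes with 10 to 50 expected counts, 66.7% of 15 readthrough genes were past 1.5 in either direction, against 56.4% of all rows. The share was 64.3% of 28 against 40.2% at 50 to 250 counts, 38.5% of 26 against 23.6% at 250 to 1000, and 36.4% of 22 against 8.36% at 1000 or more. The share was thus above that of all rows in each of these 4 bands. The gap was widest in the most abundant one, but abundance was not matched within it. There, 17 readthrough genes had fewer than 5000 counts and 5 had more, against 4491 and 5836 of all rows.

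**Figure D3:**
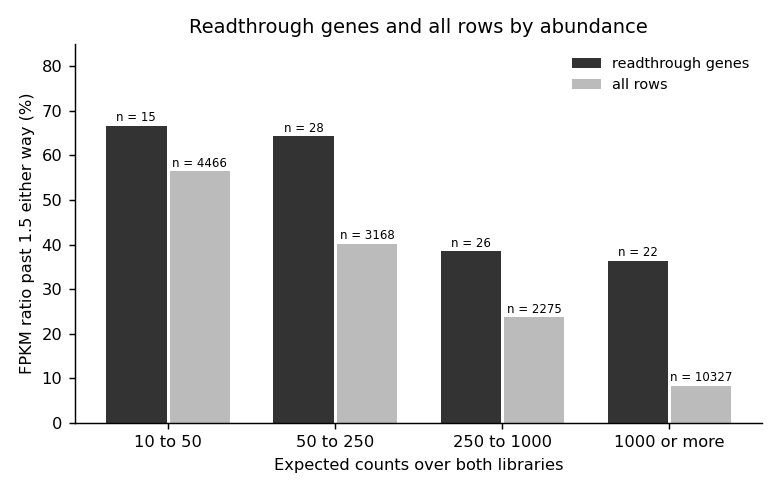
Percent of genes with an FPKM ratio past 1.5 in either direction (y axis) by expected counts over both libraries (x axis), for readthrough genes (black) and all rows (grey), with the number of genes above each bar. The share falls with abundance in both, from 66.7% to 36.4% in readthrough genes and from 56.4% to 8.36% over all rows.

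On the counts alone, the counting interval lay above 1 in 40 of the 98 readthrough genes, against 28.3% of all rows, and below 1 in 34 (34.7%), against 28.0%. Of the parents, 31.0% lay above 1 and 40.8% below, so parents lay below 1 in a larger share than readthrough genes. The interval included 1 in 24 of the 98 readthrough genes. FPKM also depends on an effective length that was estimated separately in each library. In the 78 readthrough genes at 0.1 FPKM or more in each library, the length implied by the deposited count and FPKM differed by 1.5-fold or more between the libraries in 8 (10.3%), against 1.56% of all rows and 2.21% of parents. In 7 of 91 readthrough genes (7.69%) the FPKM and the scaled counts had opposite directions, which is close to the 6.87% over all rows. ABHD14A-ACY1, whose downstream parent encodes aminoacylase, had 77.3 expected counts in DMSO and 45.49 in FIN56 but an FPKM of 0.51 and 0.74, with implied lengths of 2160 and 841 bases.

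The readthrough genes with the most counts, ANKHD1-EIF4EBP3, HNRNPUL2-BSCL2 and IQCJ-SCHIP1, lay between the thresholds. ANKHD1-EIF4EBP3, which joins a KH-domain protein gene to a gene for a repressor of translation initiation, had 6018 and 5552 expected counts and an FPKM of 11.13 and 9.55, a ratio of 0.858. HNRNPUL2-BSCL2 joins an RNA-binding protein gene to the gene of seipin, which organises lipid droplets, and had an FPKM of 20.15 and 19.52, a ratio of 0.969. By expected counts these genes were not minor at their loci. By FPKM, however, ANKHD1-EIF4EBP3 stood below ANKHD1, which was at 30.52 and 35.89. ANKHD1-EIF4EBP3 held 53.7% and 47.2% of the expected counts of its locus, and HNRNPUL2-BSCL2 held 35.4% and 37.5%. IQCJ-SCHIP1 held 89.5% and 89.7%, with IQCJ itself listed at 0, and its FPKM was 30.56 and 35.36. ANKHD1-EIF4EBP3 and IQCJ-SCHIP1 have no annotated intron that runs directly from an exon of the upstream parent to an exon of the downstream parent. Of their exonic bases, 21.4% and 56.6% lie outside both parents. Their counts therefore need not come from joined transcripts.

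Among the 15 genes with the most counts, 2 were past 1.5 upward and 2 downward. ARPIN-AP3S2, of an inhibitor of actin branching and an adaptor protein subunit, had an FPKM of 7.03 and 10.62, a ratio of 1.51 with a counting interval of the count ratio of 1.40 to 1.63. Its parents lay apart, with ARPIN at a ratio of 0.606 and AP3S2 at 1.54. On scaled counts ARPIN was at 0.534 and AP3S2 at 1.07, so the FPKM ratio of AP3S2 reflects mainly a difference in implied length. FMC1-LUC7L2, of an assembly factor of the mitochondrial ATP synthase and a splicing factor, had 795 and 1377 expected counts and an FPKM of 7.25 and 12.07. Its ratio was 1.66 (interval 1.52 to 1.82), whereas FMC1 was at 0.970 and LUC7L2 at 1.03, both close to 1.

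BCL2L2-PABPN1, of an anti-apoptotic protein and the nuclear poly(A)-binding protein, had 1949 and 957 expected counts and an FPKM of 16.8 and 8.6. Its ratio of 0.512 was close to that of BCL2L2, 0.540, and below that of PABPN1, 0.759. PEDS1-UBE2V1, of the desaturase that makes plasmalogens and a ubiquitin-conjugating enzyme variant, went the other way from its parents. It had an FPKM of 6.77 and 4.44, a ratio of 0.656 (interval 0.601 to 0.716), where PEDS1 was at 1.10 and UBE2V1 at 1.22. The 11 other genes of the 15 had ratios between 0.691 (ISY1-RAB43) and 1.18 (RPS10-NUDT3).

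The direction of a readthrough gene often differed from that of at least 1 parent. In the 82 loci where all 3 genes were above 0 FPKM in both libraries, the readthrough gene had the direction of both parents in 24 (6 higher, 18 lower) and the opposite direction to both in 16 (9 higher, 7 lower). In the other 42 the parents differed in direction or 1 of the 3 genes had equal values. The readthrough ratio lay between those of its parents in 17 loci, above both in 38 and below both in 27. Readthrough minus the mean of its parents, on the log2 scale, had a median of 0.16 with quartiles of -0.40 and 0.81, and it was 1 or more in 17 loci and -1 or less in 10. In the 64 loci where all 3 genes had at least 50 expected counts, Pearson's r of the log2 ratios across loci was -0.02 between readthrough and upstream parent, 0.21 between readthrough and downstream parent, and 0.17 between the parents. Spearman's rho was 0.01, 0.13 and 0.12. These describe loci of the same pair of libraries, which are not independent replicates, and reads divided between the genes tie their values together.

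**Figure D4:**
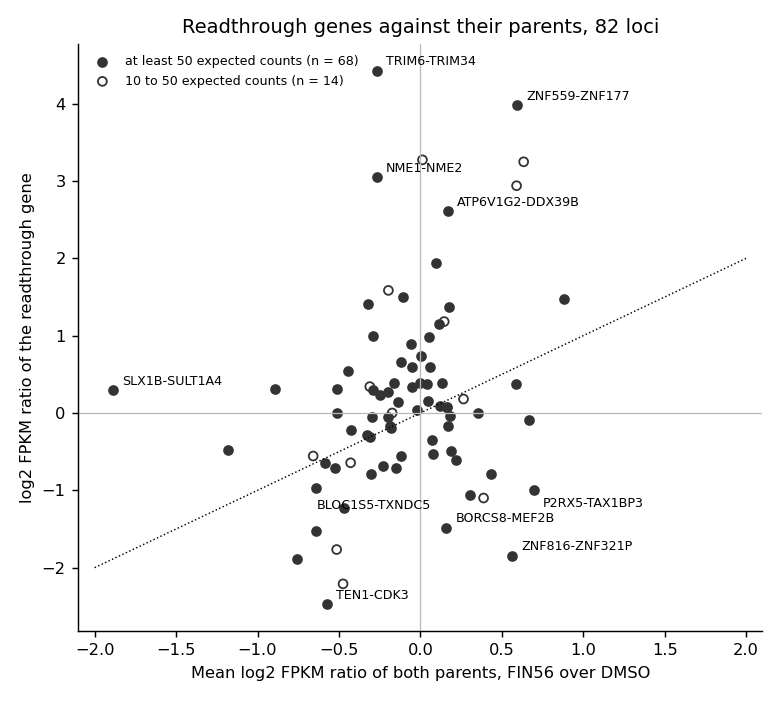
Log2 FPKM ratio (FIN56 over DMSO) of the readthrough gene (y axis) against the mean of its parents (x axis) for 82 loci, filled where the readthrough gene had at least 50 expected counts (68) and open below that (14). The dotted line marks equal values, and the readthrough genes spread from -2.47 to 4.43 while the parent means lie between -1.88 and 0.88.

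Summed over the locus, most changes between the libraries were small. At most loci these sums are made up mainly of parent counts, so they cannot show whether changes cancel within a locus. Readthrough gene and parents together passed 1.5 in 12 of 98 loci on scaled counts, 2 higher and 10 lower, and the median size of the log2 ratio of these sums was 0.22. In the 37 loci with whole sums, 25 readthrough genes and 5 sums were past 1.5 on scaled counts, with median sizes of 0.79 and 0.24, and on FPKM 22 readthrough genes were past 1.5. The readthrough gene held a median of 4.22% of the expected counts of its locus in DMSO and 4.70% in FIN56, and over 50% in 8 loci in both libraries. A few percent of a locus is thus large relative to a typical readthrough gene. It can also be large relative to a parent with few counts, such as FMC1 with 79.3 of 7224 expected counts in DMSO. Whether reads shifted between the genes of a locus was not tested.

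NME1-NME2 joins the genes of the nucleoside diphosphate kinases A and B, which transfer phosphate between nucleotides. The readthrough gene had 161 expected counts in DMSO and 1491 in FIN56, and an FPKM of 2.76 and 22.83, a ratio of 8.27. The counting interval of its count ratio, 8.88, ran from 7.56 to 10.5. Both parents were slightly lower in FIN56. NME1 had 12735 and 11109 expected counts (FPKM ratio 0.842), and NME2 had 42571 and 36197 (0.817). The joined gene held 0.291% of its locus in DMSO and 3.06% in FIN56, and all of its 1241 annotated exonic bases are also exonic in a parent, so only the junction printed above sets it apart.

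TRIM6-TRIM34, of a pair of tripartite-motif genes with roles in ubiquitin ligation and antiviral defence, had the highest FPKM ratio among genes with at least 50 expected counts, 21.5, from an FPKM of 0.02 and 0.43. Its count ratio of 19.3 had an interval from 8.29 to 62.8. TRIM6 stood at 0.868 and TRIM34 at 0.7995, and the locus sum at 0.843. ZNF559-ZNF177, of a pair of zinc finger genes, had 7.05 and 69.52 expected counts and an FPKM ratio of 15.75, with ZNF559 at 0.759 and ZNF177 at 3. Its scaled count ratio was 9.47 (interval 4.42 to 24.8). At this locus the downstream parent and the readthrough gene were both higher while the upstream parent was lower. ATP6V1G2-DDX39B, of a proton pump subunit and an RNA helicase of messenger RNA export, had 13.98 and 85.91 expected counts and a ratio of 6.10, beside 1.36 for ATP6V1G2 and 0.928 for DDX39B. TBC1D3P1-DHX40P1, of a pair of pseudogenes, had 8.6 and 54.53 expected counts and a ratio of 6.14. Its downstream parent was at 2.04 and its upstream parent was listed at 0.

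The lowest ratio was that of TEN1-CDK3, with an FPKM of 0.61 and 0.11, a ratio of 0.180 (interval of the count ratio 0.131 to 0.296). TEN1 was at 0.917 and CDK3 at 0.491. MSH5-SAPCD1, whose upstream parent encodes a meiotic recombination protein, had 469 and 127 expected counts and a ratio of 0.271, and its parents were lower as well, at 0.593 and 0.589. CHKB-CPT1B joins choline kinase beta to the muscle form of the carnitine palmitoyltransferase that admits fatty acids to mitochondria. It had 268 and 131 expected counts and a ratio of 0.347, beside 0.951 for CHKB and 0.431 for CPT1B. BORCS8-MEF2B, of a lysosome-positioning subunit and a transcription factor, had 193 and 74.1 expected counts and a ratio of 0.358, with BORCS8 at 0.998 and MEF2B at 1.25. In these loci the readthrough gene lay below both parents.

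In 7 loci with at least 50 expected counts the readthrough gene was past 1.5 in one direction and both parents lay on the other side of 1. Beside PEDS1-UBE2V1, NME1-NME2 and TRIM6-TRIM34, these were the following 4. BLOC1S5-TXNDC5, of a subunit of an organelle-biogenesis complex and a disulfide isomerase of the endoplasmic reticulum, had 433 and 216 expected counts and a ratio of 0.481, with its parents at 1.27 and 1.20. ZNF816-ZNF321P had 58.54 and 16.71 expected counts and a ratio of 0.278, with ZNF816 at 1.78 and ZNF321P at 1.23, the widest such gap downward (-2.41 on the log2 scale). P2RX5-TAX1BP3, of an ATP-gated channel and a PDZ-domain protein, had 89.6 and 48.8 expected counts and a ratio of 0.5, with its parents at 2.25 and 1.16. ZHX1-C8orf76, whose upstream parent encodes a zinc finger and homeobox repressor, had 162 and 315 expected counts and a ratio of 1.86, with both parents at 0.96. Of the 7, 3 were higher and 4 lower than their parents.

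**Figure D5:**
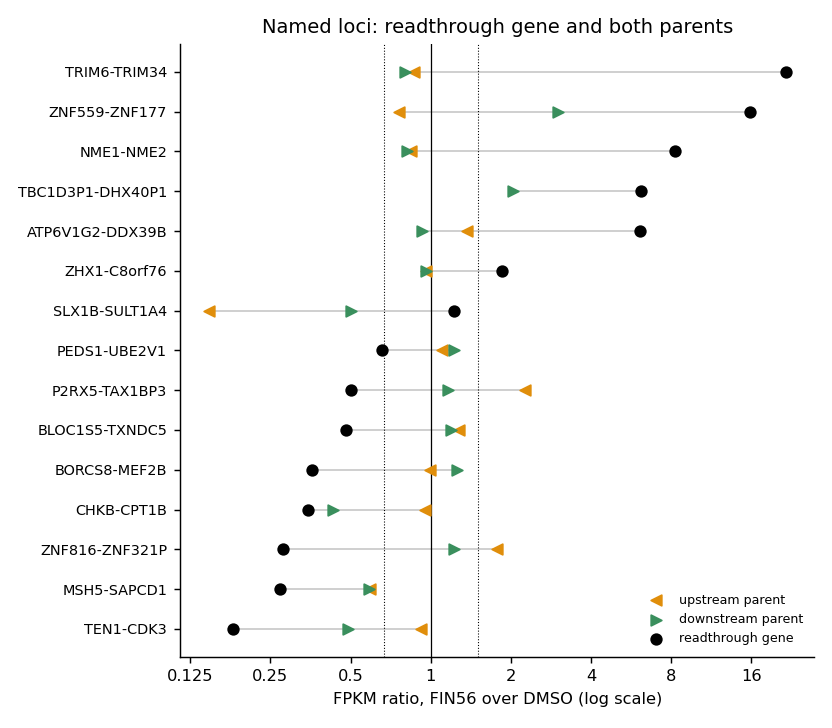
FPKM ratio, FIN56 over DMSO, on a log scale (x axis) for the readthrough gene (black circle), the upstream parent (orange) and the downstream parent (green) at 15 named loci, ordered by the readthrough ratio. The solid line marks 1 and the dotted lines 1.5 and 1/1.5. The upstream parent of TBC1D3P1-DHX40P1 was listed at 0 and is not drawn, and both drawn parents sit closer to 1 than the readthrough gene except at SLX1B-SULT1A4 and P2RX5-TAX1BP3.

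SLX1B-SULT1A4 and SLX1A-SULT1A3 join a structure-specific nuclease gene to a sulfotransferase gene in near-identical copies on chromosome 16, so their counts are uncertain between the copies as well as between parent and readthrough gene. SLX1B-SULT1A4 had 321 and 411 expected counts and a ratio of 1.23, where SLX1B was at 0.147 and SULT1A4 at 0.5. SLX1A-SULT1A3 had 778 and 996 and a ratio of 1.24, where SLX1A was at 0.397 and SULT1A3 at 0.732. In both copies the readthrough gene was higher and both parents were lower.

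Another 7 members had no count in 1 of the libraries. PDCD6-AHRR, of a calcium-binding protein and the repressor of the aryl hydrocarbon receptor, had 0 expected counts in DMSO and 190 in FIN56. Set against a floor of 3 counts in the DMSO library it was at least 60.9-fold higher in FIN56, and the counting interval of the count ratio, which also covers the error of the count in FIN56, began at 49.0, while PDCD6 was at 0.922 and AHRR at 0.794. SPECC1L-ADORA2A, whose downstream parent encodes an adenosine receptor, had 73.56 and 0 expected counts, at least 25.5-fold lower against the same floor, with a counting interval that ended at a ratio of 0.0491, while SPECC1L had an FPKM of 20.06 and 25.33 and ADORA2A of 0.22 and 0.91. Both zeros stand beside an upstream parent that was abundant in both libraries, PDCD6 with 9738 and 9200 expected counts and SPECC1L with 8080 and 10650. Only 0.919% of the exonic bases of PDCD6-AHRR and 1.97% of those of SPECC1L-ADORA2A lie outside both parents. Neither the floor nor the interval covers the error of dividing reads with the parents. The other 5 had at most 17.03 expected counts in the library where they were found. TGIF2-RAB5IF, ZFP91-CNTF, TM4SF19-TCTEX1D2 and TRIM39-RPP21 were at 0 in DMSO, and NEDD8-MDP1 was at 0 in FIN56.

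The readthrough genes were also grouped by the known roles of their parents, in lists of 5 to 11 members that were given no test. Their counts are to be read beside the shares of all readthrough genes (26.4% higher, 24.2% lower) and of all rows (11.3% and 14.4%), and a gene with parents in several roles was counted in 1 list. Of 11 members whose parents serve RNA or protein synthesis, 10 were above 0 in both libraries, with 2 higher, 1 lower and a median log2 ratio of -0.12. The higher ones were ATP6V1G2-DDX39B and RBM14-RBM4, of a pair of RNA-binding protein genes, with a ratio of 1.97 from an FPKM of 5.41 and 10.65, although its expected counts were 567 and 809.9 (scaled ratio 1.37). The lower one was BCL2L2-PABPN1. Genes that join ribosomal proteins to a neighbour lay closer to 1, with RPL17-C18orf32 at 0.974, RPL36A-HNRNPH2 at 0.873 and RPS10-NUDT3 at 1.18. SENP3-EIF4A1 was at 1.31 and PTGES3L-AARSD1 at 0.680 from 8.13 and 24.09 expected counts, where the scaled count ratio was 2.85 and so of opposite direction.

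The mitochondrial list had 6 members, all with ratios above 1 and 4 of them past 1.5, with a median log2 ratio of 0.80. The list was not complete, since FMC1-LUC7L2 (1.66) and CHKB-CPT1B (0.347) also have a parent that acts in mitochondria and stand outside it. NDUFC2-KCTD14, whose upstream parent is a subunit of complex I, had 17.74 and 70.42 expected counts and a ratio of 3.84 (interval of the count ratio 2.20 to 6.67). URGCP-MRPS24, whose downstream parent is a protein of the mitochondrial ribosome, had 12.88 and 30.16 and a ratio of 2.27 (interval 1.12 to 4.63). SYNJ2BP-COX16, whose downstream parent is an assembly factor of cytochrome oxidase, was at 1.51. HSPE1-MOB4 had an FPKM of 5.6 and 7.3, and ATP5MF-PTCD1 was at 1.12. The mitochondrial parents themselves lay nearer 1. NDUFC2 was at 1.10, MRPS24 at 1.03, COX16 at 1.11, HSPE1 at 0.917, ATP5MF at 0.871, PTCD1 at 1.22 and SYNJ2BP at 0.971. The list holds few genes, and some are at low levels, URGCP-MRPS24 at an FPKM of 0.26 and 0.59.

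Of 8 members in membrane traffic and ubiquitin pathways, 5 were lower and 1 higher, with a median log2 ratio of -0.63. Beside PEDS1-UBE2V1, BLOC1S5-TXNDC5 and P2RX5-TAX1BP3, the lower ones were TMEM256-PLSCR3 (downstream parent a phospholipid scramblase) with 19.77 and 5.44 expected counts, an FPKM ratio of 0.640 and a scaled count ratio of 0.264, and COMMD3-BMI1 (downstream parent a Polycomb protein) with 38.19 and 23.54 and 0.610. The higher one was ARPC4-TTLL3, of an actin-nucleating complex subunit and a tubulin-modifying enzyme, with 32.86 and 78.08 expected counts and a ratio of 2.58. STX16-NPEPL1 was at 0.818 and RNF103-CHMP3 at 1.27.

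Of 8 members joining metabolic enzyme genes, 2 were higher (NME1-NME2 and UBE2F-SCLY), 3 were lower (CHKB-CPT1B, JMJD7-PLA2G4B and PPT2-EGFL8), and the median log2 ratio was 0.07. UBE2F-SCLY, whose downstream parent releases selenium from selenocysteine, had 4.08 and 31.1 expected counts and an FPKM ratio of 3, with SCLY itself at 1.02. Its scaled count ratio was 7.32 (interval 2.63 to 29.03), and its implied length was 2.44 times as long in FIN56. JMJD7-PLA2G4B, whose downstream parent is a phospholipase, had 967 and 675 expected counts and a ratio of 0.577. Its scaled count ratio was 0.670 (interval 0.607 to 0.741), which is not past 1/1.5. Its parents lay apart, with JMJD7 at 0.638 and PLA2G4B at 2.85. PPT2-EGFL8 had a ratio of 0.623, although its scaled count ratio was 0.864 with an interval of 0.719 to 1.04 that includes 1. CHURC1-FNTB, whose downstream parent is the beta subunit of farnesyltransferase, was at 0.893 and ST20-MTHFS, whose downstream parent acts in folate metabolism, at 1.23.

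Of 5 members joining immune genes, 2 were higher (TRIM6-TRIM34 and CKLF-CMTM1) and 1 lower (KLRC4-KLRK1), with a median log2 ratio of 0.27. CKLF-CMTM1, of a pair of chemokine-like factor genes, had 19.6 and 43.63 expected counts and a ratio of 2.21. KLRC4-KLRK1, of a pair of natural killer cell receptor genes, had 37.6 and 5.54 expected counts, an FPKM ratio of 0.216 and a scaled count ratio of 0.142. TMED7-TICAM2, whose downstream parent is an adaptor of Toll-like receptor signalling, was at 1.06 with 1625 and 1666 expected counts, and LY75-CD302, of a pair of lectin receptor genes, was at 1.21. The abundant member of this group was the one nearest to 1.

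Genes of the machinery that ends transcription were not past the thresholds. All 24 listed genes of cleavage, polyadenylation and termination were above 0 in both, none was past 1.5 in either direction, and their median log2 ratio was 0.08. All are in the most abundant band, where 8.36% of all rows were past 1.5, so a count of 0 in 24 is near that share. The lowest was the scaffold SYMPK, with an FPKM of 13.71 and 9.31 (ratio 0.679), and the highest was FIP1L1, with 27.35 and 36.54 (1.34). PCF11, a termination factor, was at 0.884, the endonuclease CPSF3 at 1.14 and the exonuclease XRN2 at 1.07.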

How the data were processed

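RNA-seq was analysed for 1 library of HSC-3 cells with DMSO and 1 with FIN56, grouped by their labels. The methods describe tumor libraries only, and their steps are assumed for the cell line. Trimming used AfterQC 0.9.7, alignment to GRCh38 with the Ensembl release 94 annotation used STAR 2.6.1a, and quantification used RSEM 1.3.1. RSEM divides reads that fit several genes, so the deposited expected counts, which carry no normalization, can be fractional. The deposited FPKM, with 2 decimals, takes account of depth and of an effective length estimated per library. The deposited TPM takes account of the same and has a fixed sum. The authors made the log2 rlog values with DESeq2 1.26.0.

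Ratios of deposited FPKM (FIN56 over DMSO) were compared with 1.5 and 1/1.5 in genes above 0 in both libraries. Intervals are exact Clopper-Pearson intervals at 95% on rounded expected counts, checked on simulated whole counts. The simulation had no reads shared between genes and no variation between libraries beyond counting, so it does not cover those errors. Where 1 library was at 0, a floor of 3 counts in that library gave a lower bound. Annotation and junction sequences came from GENCODE release 44 on GRCh38, a release other than the one named in the methods. Parents with 2 rows were summed. No statistical test was run. The members and gene lists were chosen with earlier results of these data known, and most of the readthrough genes outside the fixed role lists were named by abundance, by the highest and lowest ratio, or by distance from their parents. The 7 members at 0 in 1 library, ATF7-NPFF, ARMCX5-GPRASP2 and SLX1A-SULT1A3 were named after their values were seen. Alternatives used TPM, rlog, scaled expected counts, edgeR 4.0.16 (TMM), DESeq2 1.42.0 size factors and other minimums. Python 3.11.15 and R 4.3.3 were used. Some listed genes are counted but not reported here by name.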

Additional observations from a re-analysis of the deposited data

How the results depend on the processing

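Of 85 recomputed summary values under 19 alternatives, 73 stayed within set limits. The limit was 1.5-fold for a count, and for a median the 95% interval of the main median without a change of sign. That interval was taken from the ranked values across genes or loci. These are not independent replicates, so the interval describes spread across genes and not the error of the difference between the libraries. These intervals were wide, -0.13 to 0.30 for the readthrough median and -0.07 to 0.49 for the difference from parents. A median within them need not have kept its size, and on rlog the readthrough median was 0.003. The range of the difference between readthrough genes and parents was 0.03 to 0.26 (log2). On rlog values 1 gene was higher and 0 lower. The readthrough median of 0.08 changed sign to -0.012 with expected counts scaled by library totals and to -0.014 with TMM, so it gives no direction. At 0.1 FPKM or more in each library 14 genes were higher and 19 lower, so the main balance of 24 to 22 turned, and with a threshold of 2, 18 were higher and 13 lower. Only whole expected counts left 1 gene, with 0 higher, 1 lower and a median of -1.01, and no comparison with parents, since NPFF was listed at 0. Restricting to the 37 loci with whole sums, chosen after seeing the data, left 13 higher, 9 lower and 12 with the direction of both parents, and these counts are lower because fewer loci enter. Of 270 values for 54 named readthrough genes, 61 moved by more than their counting error, 35 of them under rlog, and 0 of the genes past 1.5 changed sign. No paired analysis was possible because there is a single library of each kind, and for the same reason none could be left out. Depth limits the 20 genes with fewer than 50 expected counts, and the error of dividing reads between a readthrough gene and its parents, which no interval here covers, was not tested.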

Other observations

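The spread of the ratios differed between readthrough genes with little and with more sequence of their own. In the 60 genes with under 10% of exonic bases outside both parents, 31 of the 53 above 0 in both libraries were past an FPKM ratio of 1.5 in either direction and the median size of the log2 ratio was 0.66. In the 38 with 10% or more, 15 were past 1.5 and the median size was 0.38. The median expected count over both libraries was 159 in the former and 334 in the latter, and its part in this difference was not tested. Over all rows with at least 10 expected counts, 11.3% lay at 1.5 or more and 14.4% at 1/1.5 or less. In either direction together, 40.2% of all rows were past 1.5 at 50 to 250 counts and 23.6% at 250 to 1000.

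Several members with few counts had wide intervals. TBCEL-TECTA, of a tubulin-binding protein and a protein of the inner ear, had 2.31 and 38.38 expected counts, an FPKM ratio of 9.5 and a scaled count ratio of 15.96 with an interval of 4.72 to 156, and DNAAF4-CCPG1, whose downstream parent is a receptor for autophagy of the endoplasmic reticulum, had 2.41 and 30.86, an FPKM ratio of 9.67 and a scaled count ratio of 12.3 with an interval of 3.79 to 128. Both were named after their values were seen. TBCEL and DNAAF4 had FPKM ratios of 0.803 and 0.776, and TECTA and CCPG1 of 3 and 1.31.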
